A study of Mus musculus with 31 samples.

Results

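The MEF2 family comprises the transcription factors *Mef2a*, *Mef2b*, *Mef2c* and *Mef2d*, and the genes described here are *Mef2a* (ENSMUSG00000030557), *Mef2c* (ENSMUSG00000005583) and *Mef2d* (ENSMUSG00000001419). They were found by gene symbol in the count table of primary microglia and by the same Ensembl identifier in that of hippocampi, so they are 3 of 54532 and 3 of 48795 genes, and each was tested in both experiments. RNA was sequenced from 13 hippocampi and from 18 libraries of primary microglia. The hippocampi came from 7 non-transgenic mice (Ntg), of which 3 were female, and from 6 *P301S* mice, of which 3 were female, all 8 to 9 months old. *P301S* mice carry human tau with the P301S mutation under the mouse prion promoter, which is active in neurons and in other cells, and the labels give no *Cgas* genotype for any of the 13 mice. The microglia were *Cgas*+/+ or *Cgas*-/-, and cells of each genotype received vehicle, tau fibrils (0N4R, 2 µg/ml) or herring testis DNA (HT-DNA, 1 µg/ml), with RNA taken 6 h later and 3 libraries in each of the 6 groups. These cells were grown from the cortices of newborn pups in mixed glial cultures with granulocyte–macrophage colony-stimulating factor, so they are neither adult nor hippocampal. Nothing in the labels ties a library to a separate culture or litter, so p-values in microglia measure the spread between these libraries, and the *Cgas* genotype and the cultures of each genotype cannot be told apart.

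MEF2 proteins are MADS-box factors that bind A/T-rich sites as dimers. Class IIa histone deacetylases hold them in a repressive state, and calcium signals acting through calmodulin-dependent kinases and calcineurin release them to activate genes such as *Nr4a1*, *Jun* and *Klf2*. *Mef2c* is known for its part in the development of excitatory neurons and in limiting synapse number, and in microglia it has been described as a restraint on inflammatory gene expression. *Mef2a* and *Mef2d* are expressed in most cell types and act beside *Mef2c* in neurons.

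By the GENCODE annotation of mouse build GRCm38, *Mef2c* lies on the plus strand of chromosome 13 from 83504034 to 83667080, *Mef2a* on the minus strand of chromosome 7 from 67231163 to 67372858, and *Mef2d* on the plus strand of chromosome 3 from 88142372 to 88172086. Exons of *Mef2a* share bases with *Lysmd4* on the other strand, which had 131 to 267 reads per microglial library and 675 to 904 per hippocampus, and those of *Mef2d* share bases with the antisense gene *1700113A16Rik*, which had at most 15 and 63. Whether reads were counted by strand is not given in the sources used here, so reads of these pairs may not be separated. The promoter windows (250 bases before to 50 after each RefSeq start, build GRCm38.p6) were searched on both strands for 3 motifs: the MEF2 consensus, the interferon-stimulated response element (ISRE, searched as GAAA, any 2 bases and GAAA), and the interferon gamma activated site as TTCNNNGAA. The 2 matches found in the members' windows are shown because one is the family's own motif and the other a motif of interferon signalling. Capitals mark the match. The *Mef2a* sequence is chr7:67372842-67372869 on the minus strand, with the match beginning 2 bases before the start, and the *Mef2c* sequence is chr13:83503868-83503895 on the plus strand, with the match beginning 157 bases before the first of the 3 starts of *Mef2c*.
Mef2a, MEF2 consensus: gcctgactcCTAAAAATAGccccggtgt
Mef2c, TTCNNNGAA: ccaagattaTTCTTGGAAatgtaatttt
Of the 32851 promoter windows in the table, 3.19% held the MEF2 consensus, 8.3% held TTCNNNGAA and 3.44% held the ISRE, which was in no window of *Mef2a*, *Mef2c* or *Mef2d*. A match describes letters in a window, and no binding was measured.

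Levels are given as normalized CPM, which put libraries of unequal depth on one scale through TMM factors, and are compared between samples for 1 gene at a time. Libraries held 25953296 to 35779977 counted reads in hippocampi and 17037459 to 25174764 in microglia. *Mef2c* had 3256 to 9099 reads per hippocampus and 1221 to 3269 per microglial library, and *Mef2a* and *Mef2d* had at least 1818 in every library. *Mef2b* had 0 or 1 read in every hippocampus and at most 5 in any microglial library, and it was left out of the tests by the filter on low counts. As checks of the labels, *Cgas* fell by 2.22 on the log2 scale in *Cgas*-/- microglia with vehicle (SE 0.12, edgeR quasi-likelihood test, adjusted p = 6.05e-15), and *Mapt*, whose reads may include those of the human transgene, rose in *P301S* hippocampi by 0.80 (SE 0.07, adjusted p = 0.000122). The cells called microglia had 10177 to 25981 reads of *Csf1r* and 2037 to 9479 of *Cx3cr1* per library, but at most 5 of *Siglech*, and at most 17 of any of 8 neuronal markers. A gene is said to have risen or fallen where its Benjamini-Hochberg adjusted p from edgeR was under 0.05.

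In hippocampi, the question was whether the 3 genes differ between *P301S* and Ntg mice, and none passed the test. *Mef2c* had 170.3, 133, 175, 145, 270.5, 189 and 183 normalized CPM in Ntg mice 35, 46, 55, 61, 62, 68 and 71. In *P301S* mice 29, 36, 43, 63, 65 and 77 it had 295, 269, 256, 107, 345 and 171 normalized CPM. Mice 29, 36, 43 and 65 were above every Ntg mouse other than mouse 62, mouse 77 was within the Ntg range and mouse 63 was below it, so the groups overlapped. The means were 241 ± 86.6 (SD, n = 6) in *P301S* and 181 ± 44.5 (SD, n = 7) in Ntg mice, a log2 fold change of 0.41 (SE 0.23, 95% interval -0.08 to 0.90, edgeR adjusted p = 0.417). An exact two-sided permutation test of log2 normalized CPM gave p = 0.217. Leaving out single mice moved the change between 0.28 without mouse 65 and 0.56 without mouse 63, and it was never called. The highest *P301S* mouse had 3.21 times the *Mef2c* level of the lowest, against 2.04 times in Ntg mice. Whether the spread differed between the groups was not tested.

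*Mef2a* showed the mirror of this pattern. It had 220.1, 252, 204, 216, 224, 217 and 189 normalized CPM in the 7 Ntg mice, in the order given for *Mef2c*, and 172, 172, 151, 243, 142 and 248 in the 6 *P301S* mice. The 4 *P301S* mice with high *Mef2c* were below every Ntg mouse in *Mef2a*, and mice 63 and 77 were at the upper end of the Ntg range. The means were 188 ± 46.1 and 217 ± 19.3 normalized CPM, with a log2 fold change of -0.21 (SE 0.13, 95% interval -0.49 to 0.07, adjusted p = 0.479, exact permutation p = 0.116).

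*Mef2d* was lower on average in *P301S* mice, by less than the test required. It had 324, 371, 329.9, 357, 321, 327 and 310.4 normalized CPM in the Ntg mice and 284, 266, 348, 306, 262 and 279.6 in the *P301S* mice. Of the 6 *P301S* mice, 5 were below every Ntg mouse, and mouse 43 was within the Ntg range. The means were 291 ± 31.8 and 334 ± 21.6, a log2 fold change of -0.20 (SE 0.07, 95% interval -0.36 to -0.04), with p = 0.016 and adjusted p = 0.185 by edgeR and an exact permutation p = 0.0175. Without mouse 43 the change was -0.26 and passed the test (adjusted p = 0.0304). In the same comparison 249 of 16453 genes (1.51%) were called.

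**Figure D1:**
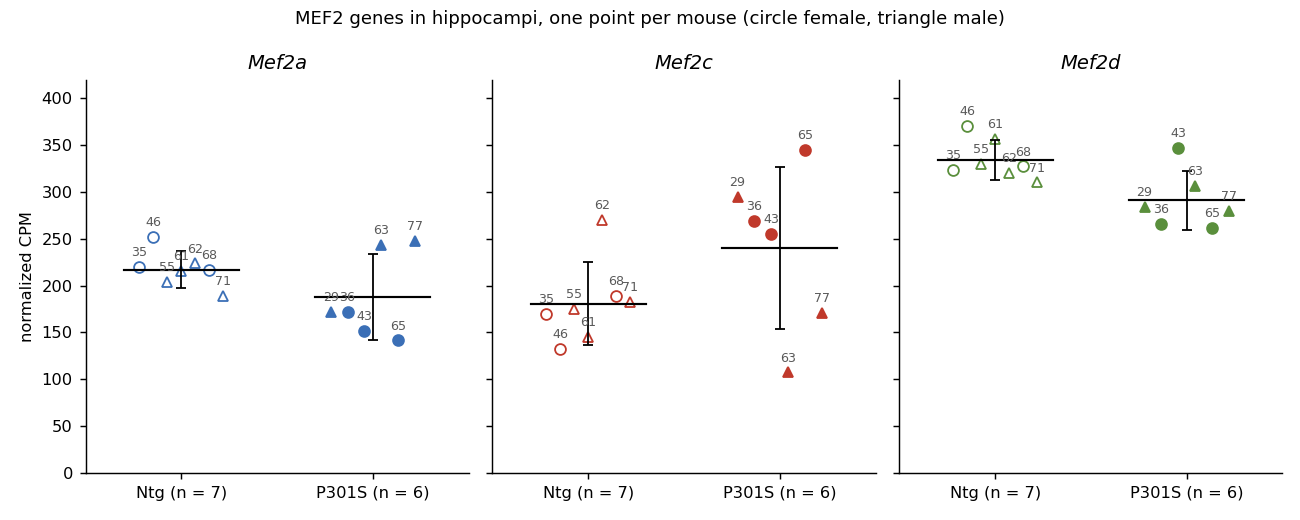
Normalized CPM of *Mef2a*, *Mef2c* and *Mef2d* in each hippocampus, with circles for females, triangles for males, open symbols for Ntg (n = 7) and filled symbols for *P301S* (n = 6), mouse numbers above the points, and lines and bars for mean and SD. *P301S* mice 29, 36, 43 and 65 are high in *Mef2c* (256 to 345) and low in *Mef2a* (142 to 172), and mice 63 and 77 are the other way round.

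Across all 13 mice the log2 levels of *Mef2c* and *Mef2a* ran opposite, with Pearson's r = -0.80 (permutation p = 0.00121, adjusted p = 0.00726 over the 18 relations computed) and Spearman's rho = -0.72 (permutation p = 0.00721, adjusted p = 0.0481). Leaving out mice 65 and 63, the 2 farthest from the median of *Mef2c*, gave r = -0.70 (permutation p = 0.0173). Within *P301S* mice r was -0.89 (exact permutation p = 0.0208, adjusted p = 0.0936 over the 18 relations within the group, n = 6), and within Ntg mice it was -0.27 (exact permutation p = 0.553, n = 7), so the relation passed over all mice and not after adjustment within either group. In reads, the ratio of *Mef2c* to *Mef2a* was 0.527 to 1.21 in Ntg mice and 1.57 to 2.44 in *P301S* mice 29, 36, 43 and 65, but 0.441 and 0.69 in mice 63 and 77.

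The mean of 5 markers of hippocampal layers (*Prox1*, *C1ql2*, *Wfs1*, *Fibcd1* and *Spink8*) moved with these genes. It was 5.93 to 6.65 log2 CPM in the 7 Ntg mice and 6.56 in *P301S* mouse 77, but 5.23 to 5.80 in the other 5 *P301S* mice. Mouse 63 was the exception, with a low marker mean of 5.66 and the lowest *Mef2c*. Over 13 mice this mean had r = 0.76 with *Mef2a* (permutation p = 0.00257, adjusted p = 0.00961, rho = 0.71, permutation p = 0.00759, adjusted p = 0.0481) and r = -0.58 with *Mef2c* (permutation p = 0.0386, adjusted p = 0.0869, rho = -0.67, permutation p = 0.0144, adjusted p = 0.0518). Without the 2 mice farthest from the median of each gene these were 0.66 (permutation p = 0.0289) and -0.83 (permutation p = 0.00267). Within groups r with *Mef2a* was 0.76 in Ntg (exact permutation p = 0.047, adjusted p = 0.169, n = 7) and 0.69 in *P301S* mice (exact permutation p = 0.114, adjusted p = 0.41, n = 6). For *Mef2c* r was -0.57 in Ntg (exact permutation p = 0.178, adjusted p = 0.356, n = 7) and -0.47 in *P301S* mice (exact permutation p = 0.343, adjusted p = 0.63, n = 6). With *Mef2d* the marker mean had r = 0.67 over 13 mice (permutation p = 0.0128, adjusted p = 0.0384, rho = 0.69, permutation p = 0.0107, adjusted p = 0.0481). Without *P301S* mice 65 and 36 r was 0.41 (permutation p = 0.211), so passing the test over all mice depended on those mice. Within groups r was 0.86 in Ntg mice, which include neither of them (exact permutation p = 0.0125, adjusted p = 0.113, n = 7). In *P301S* mice it was 0.21 (exact permutation p = 0.656, n = 6).

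Markers of myeloid cells differed between the same mice. The mean of 7 pan-myeloid markers was 3.48 to 3.76 log2 CPM in Ntg mice, 5.73 to 5.85 in *P301S* mice 29, 36 and 65, 4.77 in mouse 77, and 3.59 and 3.87 in mice 43 and 63. Mouse 43 therefore had high *Mef2c* with a pan-myeloid mean within the Ntg range. With the layer marker mean as a covariate the log2 fold change of *Mef2c* was -0.03 in place of 0.41, that of *Mef2a* was 0.07 in place of -0.21 and that of *Mef2d* was -0.11 in place of -0.20, and with the pan-myeloid mean as a covariate they were -0.05, -0.05 and -0.04. None was called before or after, and both covariates were chosen after the data were seen. Over all genes, 249 were called without a covariate and 4 with the layer marker mean. With the homeostatic microglial or the neuronal marker mean, which were planned as covariates, all 3 genes kept their direction and stayed uncalled. The part of these markers in the levels of the 3 genes was not tested, and in whole hippocampus a change in the number of cells of a type cannot be told apart from a change in RNA per cell.

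**Figure D2:**
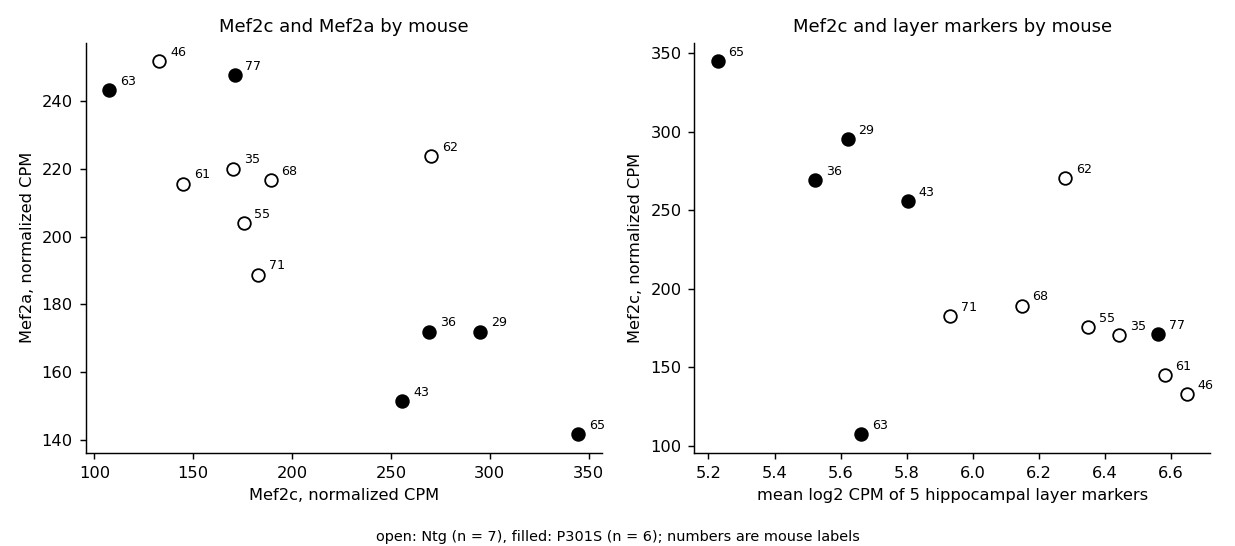
Left, normalized CPM of *Mef2c* (x) and *Mef2a* (y) in 13 hippocampi, and right, mean log2 CPM of 5 hippocampal layer markers (x) and normalized CPM of *Mef2c* (y), with open points for Ntg, filled points for *P301S* and mouse numbers beside them. On the left the points fall from upper left to lower right (r = -0.80), and on the right mouse 63 stands below the others with a marker mean of 5.66.

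Among *P301S* mice, the 2 with the lowest interferon response had the highest *Mef2d*. The mean of 15 interferon-stimulated genes was 1.27 to 1.83 log2 CPM in Ntg mice, 1.48 and 1.91 in *P301S* mice 43 and 63, and 3.34 to 4.45 in the other 4. *Mef2d* was 348 and 306 normalized CPM in mice 43 and 63, and 262 to 284 in the others. Mouse 65 had both the lowest *Mef2d* (262) and the highest interferon mean (4.45). Within *P301S* mice *Mef2d* had r = -0.91 with the interferon mean (exact permutation p = 0.00833, adjusted p = 0.0666, n = 6), -0.89 with the pan-myeloid mean (exact permutation p = 0.0111, adjusted p = 0.0666, n = 6) and -0.96 with the mean of 7 homeostatic microglial markers (exact permutation p = 0.00278, adjusted p = 0.05, n = 6). Within Ntg mice the same values were 0.02, 0.62 and 0.71 (exact permutation p = 0.96, 0.12 and 0.076, n = 7). The homeostatic mean was 5.11 to 5.36 log2 CPM in Ntg mice, 4.92 and 5.13 in mice 43 and 63, and 5.61 to 6.03 in the other 4 *P301S* mice. No r over all 13 mice is given for these 3 means because those 4 mice stood apart from the other 9 in each, and the values within *P301S* mice rest on the same split of 2 and 4 mice. For *Mef2c* within *P301S* mice r was 0.46, 0.65 and 0.54 with these means (exact permutation p = 0.35, 0.153 and 0.249, n = 6), and for *Mef2a* it was -0.11, -0.36 and -0.25 (exact permutation p = 0.849, 0.418 and 0.647, n = 6). Within Ntg mice *Mef2a* had r = 0.91 with the homeostatic mean (exact permutation p = 0.00258, adjusted p = 0.0464, n = 7), the one relation within a group that passed after adjustment.

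The 3 female *P301S* mice had 142 to 172 normalized CPM of *Mef2a*, and the males 29, 63 and 77 had 172, 243 and 248. Mouse 29 was thus at the level of the females. Among Ntg mice the 3 females had 217 to 252 and the 4 males 189 to 224. The interaction of sex with genotype for *Mef2a* was 0.65 on the log2 scale (SE 0.18, 95% interval 0.26 to 1.05) and did not pass in edgeR (adjusted p = 0.104), whereas DESeq2 called it (0.64, adjusted p = 0.0274). For *Mef2c* the interaction was -0.84 (SE 0.43, adjusted p = 0.249) and for *Mef2d* 0.04 (SE 0.15, adjusted p = 0.905). edgeR called 0 of 16453 genes (0%) for this interaction, with 3897 at an unadjusted p under 0.05, and DESeq2 called 1087.

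In microglia, the comparisons asked how the 3 genes differ with *Cgas* genotype and with each treatment. *Mef2c* differed with both. It had 120.3, 120.3 and 122 normalized CPM in the 3 *Cgas*+/+ vehicle libraries and 68.2, 71.9 and 61.4 in the 3 *Cgas*-/- vehicle libraries. All *Cgas*-/- libraries were below all *Cgas*+/+ libraries. The means were 67.1 ± 5.36 and 121 ± 1.19 (SD, n = 3 each), a log2 fold change of -0.85 (SE 0.05, 95% interval -0.96 to -0.75, edgeR adjusted p = 6.86e-14). The difference with tau was similar in size, at 60.5 ± 2.84 against 112 ± 5.44 (-0.89, SE 0.05, adjusted p = 2.42e-14), and that with HT-DNA was wider, at 64.9 ± 0.211 against 171 ± 6.27 (-1.40, SE 0.05, adjusted p = 2.08e-19). Differences between the genotypes were common in both directions. With vehicle 7110 of 13675 genes (52%) were called, 24.7% of all genes as higher and 27.3% as lower in *Cgas*-/- cells. With tau 51.3% were called (25.2% higher and 26.2% lower), and with HT-DNA 63.2% (33.1% higher and 30.1% lower).

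HT-DNA raised *Mef2c* in *Cgas*+/+ microglia. The 3 *Cgas*+/+ libraries with HT-DNA had 178, 165 and 169.5 normalized CPM, all above the vehicle libraries. The log2 fold change was 0.50 (SE 0.05, 95% interval 0.40 to 0.60, adjusted p = 1.51e-09), among 47.4% of genes called and 22.8% called as higher. In *Cgas*-/- microglia the HT-DNA libraries had 64.9, 64.8 and 65.2 normalized CPM, inside the range of the vehicle libraries, with a change of -0.05 (SE 0.05, 95% interval -0.16 to 0.06, adjusted p = 0.803), where 1.32% of genes were called. The difference between the 2 changes was itself past the test, with an interaction of -0.54 (SE 0.07, 95% interval -0.69 to -0.40, adjusted p = 7.08e-07, 34% of genes called).

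Tau fibrils did not raise *Mef2c*. With tau the *Cgas*+/+ libraries had 106, 117 and 113 normalized CPM, all below the vehicle libraries but not past the test (-0.11, SE 0.05, 95% interval -0.21 to 0.00, adjusted p = 0.122). The *Cgas*-/- libraries had 57.2, 62.4 and 61.9 with tau, overlapping those with vehicle (-0.15, SE 0.05, 95% interval -0.26 to -0.04, adjusted p = 0.0564). This last change passed the test with RLE scaling (adjusted p = 0.0404), with DESeq2 (adjusted p = 0.034) and without the filter on low counts (adjusted p = 0.0425). The interaction of tau with genotype was -0.04 (SE 0.07, adjusted p = 0.816). In these comparisons 28% of genes were called for tau in *Cgas*+/+ cells, 16.7% for tau in *Cgas*-/- cells and 6.91% for the interaction. The interferon-stimulated genes did respond to tau, with 15 of 15 called higher in each genotype. Their mean went from 7.01 to 7.90 log2 CPM with vehicle to 8.89 to 9.16 with tau and 9.59 to 9.73 with HT-DNA in *Cgas*+/+ cells. In *Cgas*-/- cells it was 2.37 to 2.77 with vehicle, 6.75 to 6.88 with tau and 2.82 to 3.43 with HT-DNA.

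*Mef2a* varied little across the 6 microglial groups. Its highest group mean was 1.17 times its lowest, and its libraries ranged from 176 to 223 normalized CPM. It fell with tau in *Cgas*+/+ cells, from 203, 215 and 193 with vehicle to 185, 184 and 181 with tau (-0.15, SE 0.05, adjusted p = 0.012). This call was lost without *Cgas*+/+ vehicle library 2 (-0.11, adjusted p = 0.1) or without *Cgas*+/+ tau library 3 (-0.14, adjusted p = 0.0521). With HT-DNA it was lower in *Cgas*-/- than in *Cgas*+/+ cells, at 188, 192 and 197 against 223, 204 and 217 (-0.16, SE 0.05, adjusted p = 0.00347). It did not pass in the other 5 comparisons between groups, with changes from -0.10 to 0.08.

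*Mef2d* was the flattest of the 3, with 96.3 to 114 normalized CPM over all 18 libraries and a highest group mean 1.12 times the lowest. It fell with tau in *Cgas*+/+ cells, from 110.1, 114 and 102 to 99.2, 99.1 and 96.3 (-0.15, SE 0.04, adjusted p = 0.00902), and this call was also lost without vehicle library 2 (-0.12, adjusted p = 0.0834). Its levels did not differ past the test between genotypes with vehicle (-0.08, 95% interval -0.17 to 0.01), tau (0.06, -0.03 to 0.15) or HT-DNA (0.07, -0.02 to 0.16), so differences in *Mef2d* as large as those of *Mef2c* lie outside these intervals.

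**Figure D3:**
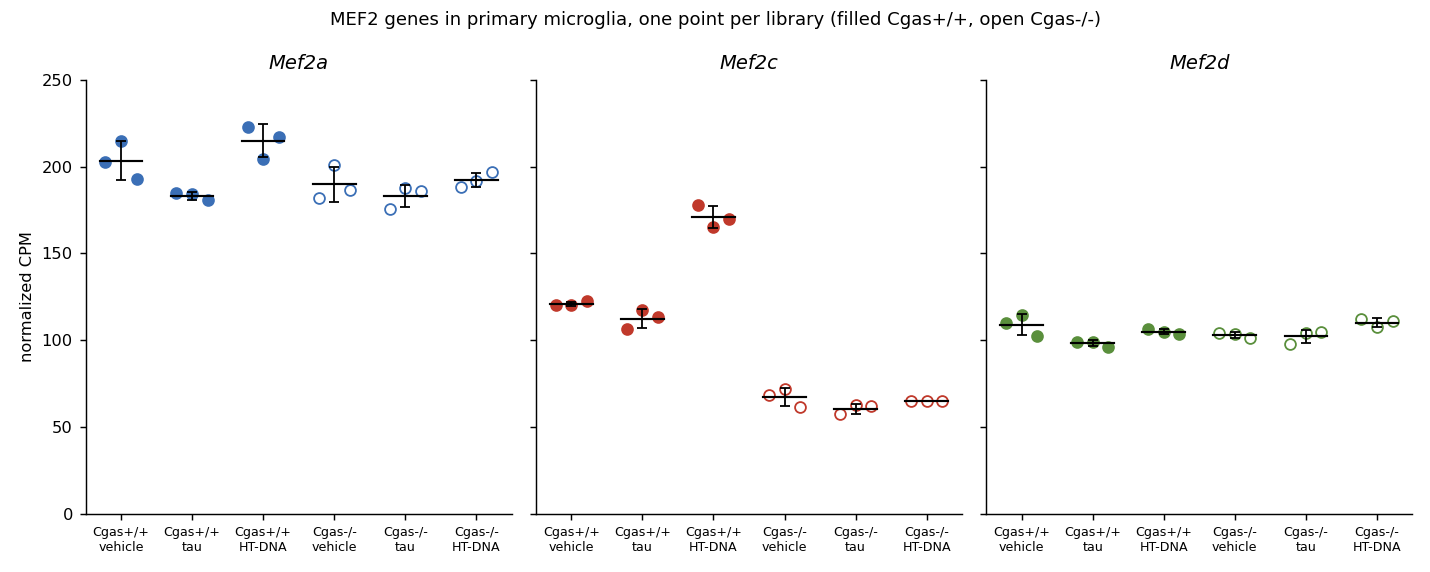
Normalized CPM of *Mef2a*, *Mef2c* and *Mef2d* in 18 microglial libraries, with filled points for *Cgas*+/+, open points for *Cgas*-/-, and lines and bars for mean and SD (n = 3 per group). *Mef2c* stands at 57.2 to 71.9 in all *Cgas*-/- libraries and at 165 to 178 with HT-DNA in *Cgas*+/+ cells, and *Mef2d* stays between 96.3 and 114.

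Ordered by mean level, *Mef2c* was highest in *Cgas*+/+ cells with HT-DNA, then with vehicle, then with tau, and lower in *Cgas*-/- cells with vehicle, HT-DNA and tau. Neighbours in this order did not overlap, except *Cgas*-/- cells with vehicle and with HT-DNA. For *Mef2a* and *Mef2d* every pair of neighbours overlapped. The ratio of *Mef2c* to *Mef2a* reads within a library was 0.56 to 0.635 in *Cgas*+/+ cells with vehicle, 0.577 to 0.636 with tau and 0.781 to 0.808 with HT-DNA, and 0.326 to 0.375 in all *Cgas*-/- libraries. These ratios compare libraries and are not a measure of the relative abundance of both genes.

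**Figure D4:**
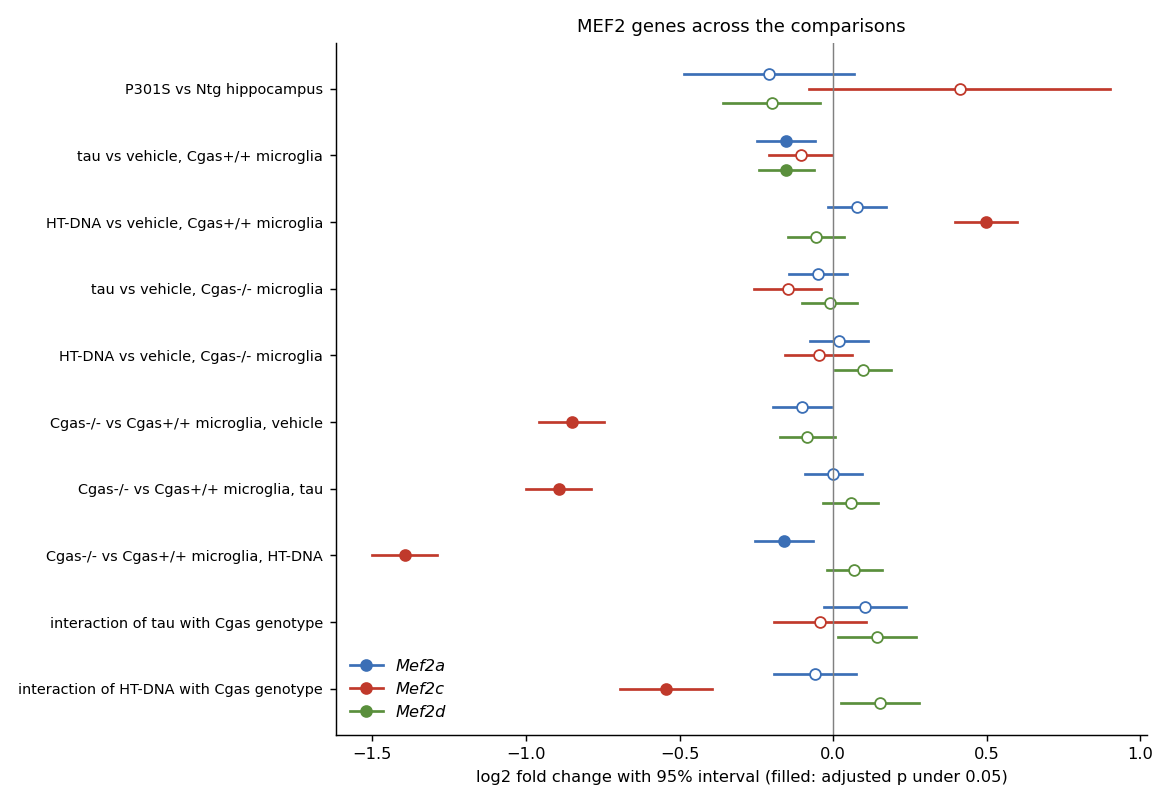
Log2 fold changes of the 3 genes with 95% intervals (x, filled where the adjusted p was under 0.05) in the hippocampal comparison and in the 9 microglial comparisons and interactions (y). *Mef2c* lies between -0.85 and -1.40 in the 3 genotype comparisons and at 0.50 for HT-DNA in *Cgas*+/+ cells, while *Mef2a* and *Mef2d* lie within -0.21 and 0.15 throughout.

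Markers of other cells and of microglial state also moved with *Cgas* genotype. The mean of the homeostatic markers tested was 6.23 to 6.68 log2 CPM in *Cgas*+/+ and 5.73 to 5.99 in *Cgas*-/- libraries. With vehicle 6 of 6 were lower in *Cgas*-/- cells (100%, against 27.3% of all genes), among them the fractalkine receptor *Cx3cr1* (-1.68). With tau 4 of 6 were lower and 0 higher (66.7% and 0%, against 26.2% and 25.2% of all genes). With HT-DNA 4 were lower and 2 higher (66.7% and 33.3%, against 30.1% and 33.1%). The pan-myeloid mean was 8.96 to 9.26 log2 CPM in *Cgas*+/+ and 8.52 to 8.68 in *Cgas*-/- libraries. Summed over the list, 6 oligodendrocyte markers were at 124 to 225 against 70.5 to 82.6 normalized CPM (*Mog* had at most 18 reads). The 5 endothelial markers summed to 105 to 389 against 27.5 to 37.2, nearly all of it *Flt1* and *Kdr* (*Cldn5* had at most 4 reads), and the 5 fibroblast markers to 1.86 to 6.68 against 0.419 to 0.861. Neuronal markers summed to at most 2.46 normalized CPM in any library. Whether these bear on the difference in *Mef2c* was not tested.

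The regulators and cofactors of MEF2 were described from a list of 22 genes, of which 20 were tested in microglia. In *Cgas*-/- against *Cgas*+/+ cells with vehicle, 4 rose and 10 fell (20% and 50% of 20, against 24.7% and 27.3% of all genes), with a median log2 fold change of -0.16 against -0.01 over all genes. Among the falls were the class IIa deacetylase *Hdac7* (2.86 ± 0.773 against 7.19 normalized CPM, -1.33) and the coactivator *Crebbp* (51.7 ± 1.56 against 81.1, -0.65). The rises were led by the calcineurin subunit *Ppp3r1* (170.3 ± 6.85 against 134, 0.35), followed by *Carm1* (0.28) and *Sirt1* (0.25).

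HT-DNA in *Cgas*+/+ cells raised 5 of the 20 regulators and lowered 7 (25% and 35%, against 22.8% and 24.7% of all genes), with a median of -0.08 against -0.03 over all genes. The class IIa deacetylases *Hdac4* (22.1 ± 1.46 against 40.6 normalized CPM, -0.88) and *Hdac5* (-0.38, adjusted p = 6.22e-08) fell. The stress kinase *Mapk14*, which phosphorylates MEF2C, fell too (77.4 ± 4.62 against 105, -0.44). The catalytic calcineurin subunits *Ppp3ca* (203 ± 2.1 against 142, 0.52) and *Ppp3cb* (0.28, adjusted p = 8.19e-05) and the acetyltransferase *Ep300* (211 ± 7.15 against 169.9, 0.31) rose. In *Cgas*-/- cells 0 of 20 regulators were called for HT-DNA by edgeR (2 at an unadjusted p under 0.05) and 0 by DESeq2, where edgeR called 1.32% of all genes. The interactions of HT-DNA with genotype were called for 12 of 20, 7 upward and 5 downward (35% and 25%, against 17.4% and 16.6% of all genes), among them *Hdac4* (0.79, adjusted p = 6e-07), *Mapk14* (0.50, adjusted p = 1.28e-06) and *Ppp3ca* (-0.49, adjusted p = 7.26e-06).

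Tau in *Cgas*+/+ cells raised 5 of 20 regulators and lowered 3 (25% and 15%, against 15.8% and 12.2% of all genes), with a median of 0.04 against -0.01 over all genes. The 3 that fell were all class IIa deacetylases, *Hdac5* (84.7 ± 4.12 against 119.7 normalized CPM, -0.50), *Hdac4* (32.2 ± 1.64 against 40.6, -0.34) and *Hdac9* (39.7 ± 1.23 against 49.6, -0.32), whereas *Hdac7* was at 0.36 without passing the test. The rises included *Ppp3ca* (165 ± 6.52 against 142, 0.22), the calcineurin inhibitor *Cabin1* (95.8 ± 0.849 against 82.3, 0.22) and *Ep300* (194 ± 3.75 against 169.9, 0.19).

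Of 17 known MEF2 target genes, 11 were tested in microglia. With HT-DNA in *Cgas*+/+ cells 6 rose and 1 fell (54.5% and 9.09% of 11, against 22.8% and 24.7% of all genes), with a median of 0.34. The scaffold gene *Homer1* rose by 1.80 (109 ± 2.95 against 31.4 normalized CPM), the orphan nuclear receptor *Nr4a1* by 1.77 (3.56 ± 0.696 against 1.04), *Egr1* by 0.59 (16 ± 1.14 against 10.7), and *Jun*, *Klf6* and *Klf2* by 0.55, 0.58 and 0.34. In *Cgas*-/- cells HT-DNA raised 2 of 11 and lowered 0 (18.2% and 0%, against 1.04% and 0.278% of all genes). The interaction of HT-DNA with genotype was called upward for 0 and downward for 4 (0% and 36.4%, against 17.4% and 16.6% of all genes). With tau in *Cgas*+/+ cells 3 of 11 rose and 0 fell (27.3% and 0%, against 15.8% and 12.2% of all genes), *Homer1* by 0.87 (57.3 ± 4.23 against 31.4), *Klf2* by 0.34 and *Klf6* by 0.21. The median with tau was -0.02, against -0.01 over all genes, and the changes ran from -0.74 to 0.87. Without treatment the list went both ways, since in *Cgas*-/- cells 6 of 11 were higher and 3 lower than in *Cgas*+/+ cells (54.5% and 27.3%, against 24.7% and 27.3% of all genes). *Egr1* (54.7 ± 4.98 against 10.7, 2.36), *Klf2* (30.1 ± 1.54 against 6.84, 2.14) and *Klf4* (43 ± 1.06 against 14.8, 1.54) were higher, and the muscle genes *Ckm* (-2.77) and *Des* (-2.63), both under 3 normalized CPM, and *Jun* (96 ± 3.6 against 119, -0.31) were lower.

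**Figure D5:**
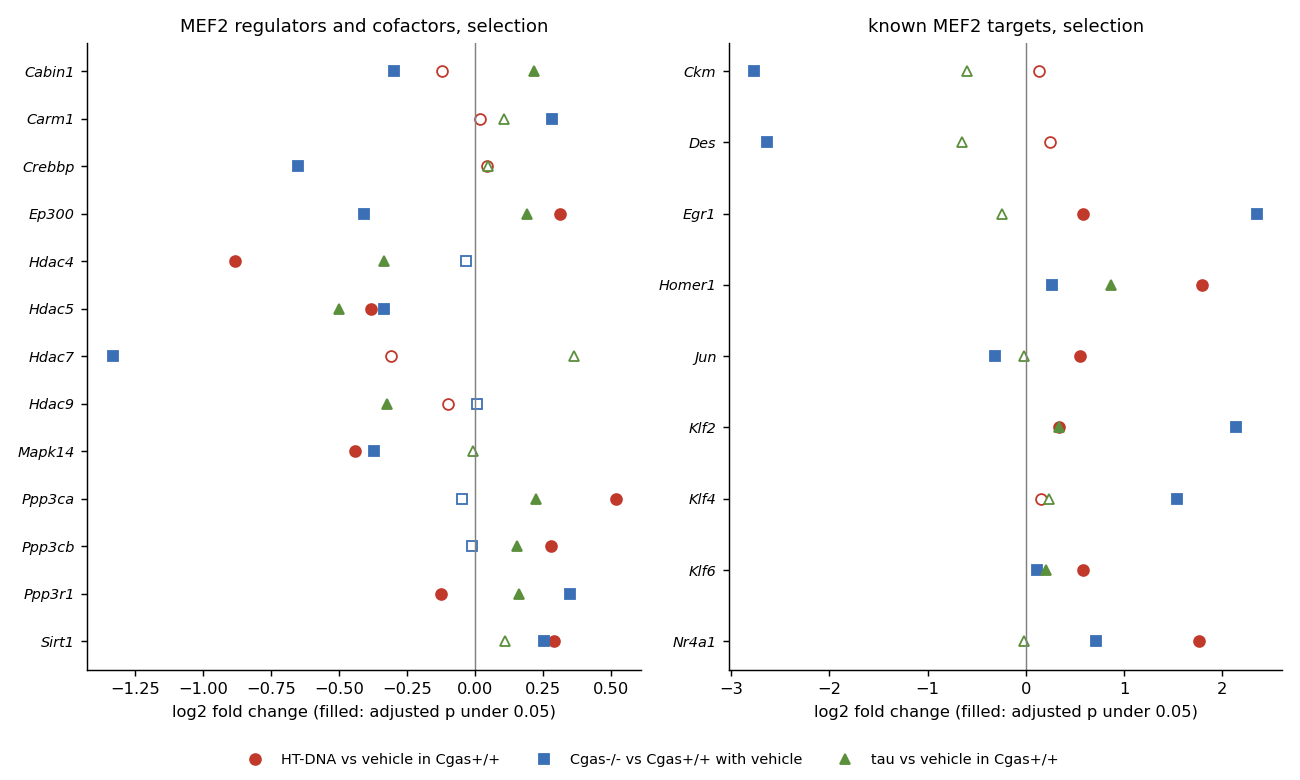
Log2 fold changes (x, filled where the adjusted p was under 0.05) of the regulators and cofactors of MEF2 (left) and the known MEF2 targets (right) described for microglia, a selection of those tested, for HT-DNA in *Cgas*+/+ cells (circles), *Cgas*-/- against *Cgas*+/+ cells with vehicle (squares) and tau in *Cgas*+/+ cells (triangles). *Hdac4* and *Hdac5* lie to the left of 0 for both treatments (-0.34 to -0.88), and *Homer1* lies to the right for all 3 comparisons (0.27 to 1.80).

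Genes called MEF2C targets by the study were chosen there in neuronal nuclei, as differing in either direction between *P301S* *Cgas*-/- and *P301S* mice. They are therefore not independent of the *Cgas* pathway, and many are neuronal genes near the limit of detection in microglia. Of 228 such genes of excitatory neurons 120 were tested in microglia, and of 122 of inhibitory neurons 59. In *Cgas*-/- against *Cgas*+/+ cells with vehicle, 20 and 10 rose (16.7% and 16.9%, against 24.7% of all genes) and 52 and 29 fell (43.3% and 49.2%, against 27.3%), with medians of -0.17 and -0.21. Among the falls largest in fold were *Pde7b* (1.17 ± 0.0757 against 8.63 normalized CPM, -2.87), *Rtn4rl1* (4.3 ± 0.494 against 22.1, -2.36) and *Cpe* (1.71 ± 0.726 against 7.89, -2.24), beside *Nyap2*, *Lrrc4* and *Shisa9* at under 4 normalized CPM in *Cgas*+/+ cells, and the rises included *Camk2n1* (25.2 ± 0.954 against 8.38, 1.59) and *Chn2* (29.3 ± 2.67 against 10.6, 1.46). With HT-DNA in *Cgas*+/+ cells 37 and 22 rose (30.8% and 37.3%, against 22.8% of all genes) and 33 and 14 fell (27.5% and 23.7%, against 24.7%), with medians of 0.04 and 0.10. The rises were led in fold by *Pcdh17* (1.94 ± 0.556 against 0.203, 3.22) and the phosphodiesterase *Pde7b* (52.3 ± 3.75 against 8.63, 2.60), and among genes at a higher level by the ceramide synthase *Cers6* (323 ± 0.15 against 113, 1.52). With tau 22 and 14 rose (18.3% and 23.7%, against 15.8% of all genes) and 21 and 10 fell (17.5% and 16.9%, against 12.2%). *Slco3a1* rose by 2.36 (5.11 ± 0.831 against 0.97) and *Parp8* by 1.18 (19.6 ± 1.3 against 8.65), while *Rtn4rl1* (8.37 ± 1.24 against 22.1, -1.39) and the cadherin *Fat3* (83.6 ± 5.35 against 142, -0.77) fell. Of 21 targets that the study names, 6 were tested in microglia. *Rasgef1b* rose with tau (165 ± 14.1 against 108, 0.62) and HT-DNA (209 ± 13.9 against 108, 0.95) and was lower in *Cgas*-/- cells with vehicle (77.5 ± 2.2 against 108, -0.48), and the potassium channel subunit *Kcnab2* went the other way in each (-0.25, -0.57 and 0.16).

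In hippocampi edgeR called few genes of the same lists, as it did of all genes (1.51%). Of 22 regulators, 16 tested known targets and 21 targets that the study names, edgeR called 0 (2, 4 and 4 at an unadjusted p under 0.05) and DESeq2 called 1, 1 and 2 as lower (4.55%, 6.25% and 9.52%, against 911 of 16453 genes or 5.54%), with medians of -0.07, -0.07 and -0.03 against 0.00 over all genes. The regulator with the smallest p was *Camk2a*, at 3675 ± 791 against 5023 normalized CPM (-0.45, edgeR adjusted p = 0.132), and among known targets it was *Klf4* (-0.51, adjusted p = 0.0987). Of the 228 targets of excitatory neurons edgeR called 0, with 60 at an unadjusted p under 0.05 (26.3%, against 15.9% of all genes), and DESeq2 called 5 as higher and 15 as lower (8.77% in all, against 5.54%). Among those nearest to the threshold were *St6galnac5* (186 ± 36 against 268, -0.53, adjusted p = 0.0527) and *Rassf3* (33 ± 9.71 against 19.7, 0.75, adjusted p = 0.0594). Of the 122 targets of inhibitory neurons 1 rose, *Gfpt2* (9.64 ± 3.06 against 5.46, 0.82, adjusted p = 0.0443), and 1 fell, *Smad3* (65.1 ± 9.2 against 86.9, -0.42, adjusted p = 0.0486). These were 0.82% each, against 1.39% and 0.122% of all genes. In this list 27 genes had an unadjusted p under 0.05 by edgeR (22.1%, against 15.9% of all genes), and DESeq2 called 8 (6.56%, against 5.54%).

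The genes most like each member were sought among those with a mean of at least 100 reads per library, by Pearson's r of log2 CPM, as a description. Over 13 hippocampi, *Mef2c* was closest to *Pdzrn3* (r = 0.96), *Dtl* (0.95) and *Rasgef1b* (0.95), and *Pdzrn3* and *Rasgef1b* are among the 21 targets that the study names. *Pdzrn3* had 7.88 to 21.6 normalized CPM in Ntg mice, highest in mouse 62, and 6.23 in mouse 63 to 34.0 in mouse 65 among *P301S* mice. These mice also stood at the ends for *Mef2c*, which follows from choosing *Pdzrn3* by its r with *Mef2c* over the same mice. *Mef2a* was closest to *Stim2* (0.98), *Shisa6* (0.98) and *Pds5b* (0.98), and *Mef2d* to *4933431E20Rik* (0.96), *Strn4* (0.94) and *Nol6* (0.94). Over 18 microglial libraries, in which the 6 groups set most of the variation, *Mef2c* was closest to *Nckap1l* (0.99), which encodes a subunit of the WAVE complex of blood cells, the integrin *Itgav* (0.99) and *Pacs2* (0.99). *Itgav* had 214 to 219 normalized CPM in *Cgas*+/+ cells with vehicle, 277 to 302.5 with HT-DNA and 93.6 to 109 in all *Cgas*-/- libraries. *Mef2a* was closest to *Snx30* (0.92), *R3hdm1* (0.91) and *Jmjd1c* (0.89), and *Mef2d* to *Zfp318* (0.80), *Ankrd28* (0.79) and *Lhfpl2* (0.77).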

How the data were processed

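The authors deposited 2 tables of raw read counts per Ensembl gene, 48795 genes in 13 hippocampi and 54532 in 18 microglial libraries, with no column left unused. The submitters' processing notes name GRCm38, edgeR and limma. Per the labels, RNA was extracted with a Zymo kit and libraries were QuantSeq 3′, whereas the Methods name an RNeasy kit for hippocampal RNA. The aligner, counting tool and annotation are not given in the sources used here. Counts were scaled with TMM, filtered with filterByExpr and tested with the quasi-likelihood F test of edgeR 4.0.16 in R 4.3.3, with the 6 microglial groups in 1 fit, giving 16453 and 13675 genes over which p-values were adjusted. SE is the log2 fold change divided by the square root of F. DESeq2 1.42.0 was an alternative, and the tests were tried on simulated data. Log2 CPM used a prior count of 2. Tau and HT-DNA comparisons share vehicle libraries.

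The members and lists were chosen with earlier results of these data known. Named list genes are up to 3 rises and 3 falls, largest in fold among called genes with a mean of at least 20 reads in the higher group, or the smallest p where none was called, in 4 comparisons (*P301S*, tau and HT-DNA in *Cgas*+/+ cells, and genotype with vehicle), and other list genes and markers were named after their values were seen. Proteins are not printed here. Some of the genes that the rule names are not reported here.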

Additional observations from a re-analysis of the deposited data

Results flagged for a closer look

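In Ntg hippocampi, *Mef2c* in mouse 62 (270.5 normalized CPM) stood apart from the other 6 mice, with a gap to the next mouse of 0.59 of the group's range against a 95% critical value of 0.568 in Dixon's test. Among 8 groups checked in this way chance would flag about 1 in 20. Without this mouse no call for *Mef2c* changed in the hippocampal comparison.

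The change of *Mef2c* with HT-DNA differed between *Cgas*+/+ and *Cgas*-/- microglia, with an interaction of -0.54 on the log2 scale that passed the test, the only one of the 9 member interactions that did with edgeR.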

How the results depend on the processing

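Over the 3 genes, 371 of 399 alternatives kept direction and side of the threshold, 12 brought a change past it, 3 took one below it, and 13 turned the sign of a change that was not called before or after. In hippocampi these were *Mef2c* and *Mef2a* with the layer marker mean as a covariate (-0.032 and 0.073) and *Mef2c* with the pan-myeloid mean (-0.054). In microglia *Mef2a* for genotype with tau (0.0011) turned with DESeq2 (-0.016), RLE scaling (-0.016) and a fit of the 2 groups alone (-0.00044), and ranged from -0.015 to 0.032 with 1 library left out. Left-out libraries also turned *Mef2a* (-0.011 to 0.063) and *Mef2c* (-0.11 to 0.0071) for HT-DNA in *Cgas*-/- cells, *Mef2d* for tau in *Cgas*-/- cells (-0.031 to 0.021) and *Mef2c* for the tau interaction (-0.11 to 0.012). With DESeq2, *Mef2a* passed for the sex interaction in hippocampi (0.64) and for HT-DNA in *Cgas*+/+ microglia (0.11, adjusted p = 0.0487). *Mef2c* for tau in *Cgas*-/- cells passed with DESeq2, RLE scaling or no filter on low counts (-0.16 in each). Replicate numbers did not pair the microglial libraries (r of -0.085 to 0.0823 over 45 same-number pairs), and with a replicate block (27 of 27 member calls as before) *Mef2c* changed by 0.50 with HT-DNA and by -0.85 with *Cgas* genotype under vehicle.

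With 1 library left out, *Mef2d* in *P301S* hippocampi ranged from -0.26 (without mouse 43) to -0.17. For tau in *Cgas*+/+ cells *Mef2a* ranged from -0.19 to -0.11 and *Mef2d* from -0.19 to -0.12. For genotype with vehicle they ranged from -0.14 to -0.059 and from -0.12 to -0.046, with *Mef2a* past the test without *Cgas*+/+ vehicle library 3 (-0.14, adjusted p = 0.0239) or *Cgas*-/- vehicle library 2 (-0.14, adjusted p = 0.0199) and *Mef2d* without *Cgas*+/+ vehicle library 3 (adjusted p = 0.0278). The HT-DNA interaction of *Mef2d* ranged from 0.088 to 0.20 and passed without *Cgas*+/+ vehicle library 3 (adjusted p = 0.0146) or *Cgas*-/- HT-DNA library 2 (adjusted p = 0.0481). *Mef2c* for tau in *Cgas*-/- cells ranged from -0.21 to -0.094 and passed without *Cgas*-/- vehicle library 3 (adjusted p = 0.00674).

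Of all genes, 249 were called in hippocampi, but 911 with DESeq2, 138 with sex as a covariate, 24, 21, 4 and 8 with the homeostatic, neuronal, layer or pan-myeloid marker mean as a covariate, and 14 (without mouse 35 or 61) to 946 (without mouse 43) with 1 mouse left out. DESeq2 called 1087 for the sex interaction. With a minimum log2 fold change of 1, genes called in microglia were 467 and 1105 for tau and HT-DNA in *Cgas*+/+ cells, 374 and 3 in *Cgas*-/- cells, 1365, 1421 and 2482 for genotype with vehicle, tau and HT-DNA, and 132 and 857 for the interactions. For HT-DNA in *Cgas*-/- cells 180 genes were called, 312 with no filter and 54 (without *Cgas*-/- vehicle library 1) to 125 with 1 library left out, and the tau interaction had 589 (without *Cgas*+/+ tau library 3) to 1122 in place of 945. The cause of these shifts was not tested. With 3 libraries a group, an exact permutation test cannot go below p = 0.1.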
